A study of Mus musculus with 6 samples.

Results

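Homeobox genes that pattern the forebrain, the midbrain and the boundary between midbrain and hindbrain were followed in neural cultures of mouse embryonic stem cells grown with or without valproate. They are Otx1, Otx2, Dmbx1, Emx1, Emx2, Barhl1, Barhl2, En1, En2 and Lmx1b, 10 of 19938 genes measured. The members were chosen by their families together with their measured difference between the valproate and control arrays, so their values on that contrast are given as a description and carry no test. Each gene was read through its brightest probe set, and all 10 had 1 probe set paired with them alone.

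Cells of the embryonic stem cell line W4 were carried through 16 days of neural differentiation in serum-free medium with basic FGF and neural supplements. The first group received 300 uM valproate (VPA), a branched fatty acid used against epilepsy that inhibits histone deacetylases and disturbs neural development. The control group received the solvent, phosphate-buffered saline (PBS). Each group had 3 arrays, which the design text calls biological replicates; all came from 1 cell line, and the cultures were mixtures that were not sorted.

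Homeobox genes encode transcription factors that bind DNA through a homeodomain. Along the early neural tube, Otx2 marks the future forebrain and midbrain, Gbx2 marks the anterior hindbrain, and the line where they meet forms the isthmic organizer, which secretes Wnt1 and Fgf8. En1, En2 and Lmx1b are expressed around that organizer, Dmbx1 and the Barhl genes in the diencephalon and midbrain, and the Emx genes in the dorsal telencephalon. Hox genes are normally confined to the hindbrain and more posterior levels.

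Values are deposited log2 signals, on which a difference of 1 is a 2-fold difference. Levels are compared between arrays for 1 gene and not between genes, since probe sets differ in brightness. As a gauge of background, the 95th percentile of 1015 olfactory receptor genes, which are mostly silent outside the nose, was 6.158. In all 10 homeobox genes both group means lay above it. Array medians lay between 6.99 and 7.03. The median absolute difference over all genes was 0.0605 to 0.0663 between PBS arrays, 0.073 between VPA replicates 2 and 3, and 0.125 and 0.132 between VPA replicate 1 and those arrays. Markers of neurons were bright in both groups, with a mean over 10 genes of 11.00 to 11.06 in the PBS arrays and 10.88 to 10.89 in the VPA arrays, and 7 pluripotency genes lay below the gauge in both groups, with 0 called by limma, 0 at an unadjusted p under 0.05 and 2 called with array weights.

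Promoter sequences of 8 of the 10 genes were present in the RefSeq table (build GRCm38.p6); Otx1 and En2 had no entry. Shown are the 250 bases before the most upstream start listed for 3 genes: Dmbx1, which had the largest difference between the groups, Otx2, which the other comparisons turn on, and Lmx1b, the 1 gene higher in every VPA array. They read 5′ to 3′ on the gene's strand, the minus strand in each case, with CpG dinucleotides in capitals. Dmbx1 lies at chr4:115939927-115940176, Otx2 at chr14:48667645-48667894 and Lmx1b at chr2:33641099-33641348.
Dmbx1: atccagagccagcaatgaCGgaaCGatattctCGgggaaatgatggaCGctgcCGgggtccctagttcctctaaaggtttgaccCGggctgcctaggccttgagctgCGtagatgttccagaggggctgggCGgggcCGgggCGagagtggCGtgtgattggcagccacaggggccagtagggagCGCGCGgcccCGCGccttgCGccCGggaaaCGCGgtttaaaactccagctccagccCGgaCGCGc
Otx2: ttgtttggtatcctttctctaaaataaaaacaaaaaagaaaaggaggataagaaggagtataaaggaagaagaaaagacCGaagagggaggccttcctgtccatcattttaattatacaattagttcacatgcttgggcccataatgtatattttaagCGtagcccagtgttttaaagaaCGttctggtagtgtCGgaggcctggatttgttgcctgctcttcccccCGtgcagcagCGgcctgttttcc
Lmx1b: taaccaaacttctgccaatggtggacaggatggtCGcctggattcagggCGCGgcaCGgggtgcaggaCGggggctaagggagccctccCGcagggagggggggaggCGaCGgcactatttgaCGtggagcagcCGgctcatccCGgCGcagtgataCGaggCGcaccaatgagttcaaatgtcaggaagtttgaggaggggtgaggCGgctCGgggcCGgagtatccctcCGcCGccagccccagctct

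The Dmbx1 stretch held 23 CpG dinucleotides, the Lmx1b stretch 19 and the Otx2 stretch 6. Over 27025 promoters of the same length the median was 6, and over the 8 homeobox genes it was 21. Barhl2 had the most among them, 36, and Otx2 the fewest. On both strands, TAATCC, the site preferred by Otx-type homeodomains, was searched for, as was TAATTA, the site preferred by many other homeodomains; both share the core TAAT, and matches to them may share bases. No stretch of the 8 genes held TAATCC, against 6.4% of all promoters. TAATTA was found once, in Otx2, beginning 141 bases before the start, against 4.9% of all promoters. These matches describe the letters of this window only.

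With VPA, 8 of the 10 homeobox genes were lower in every VPA array than in any PBS array, 1 was higher in every VPA array, and 1 overlapped. Over all 19938 genes, the VPA arrays lay wholly below the PBS arrays for 23.8% and wholly above for 20.2%; since this contrast helped choose the 10 genes, nothing is read from that comparison. The median difference of the 10 genes was -0.92, against 0.0013 over all genes. A difference of -1 or below was measured for 5 of the 10 genes and for 100 of 19938. For the same reason, nothing is read from the median or from this count. In these bulk cultures, fewer cells that express a gene and less of its RNA per cell cannot be told apart.

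**Figure D1:**
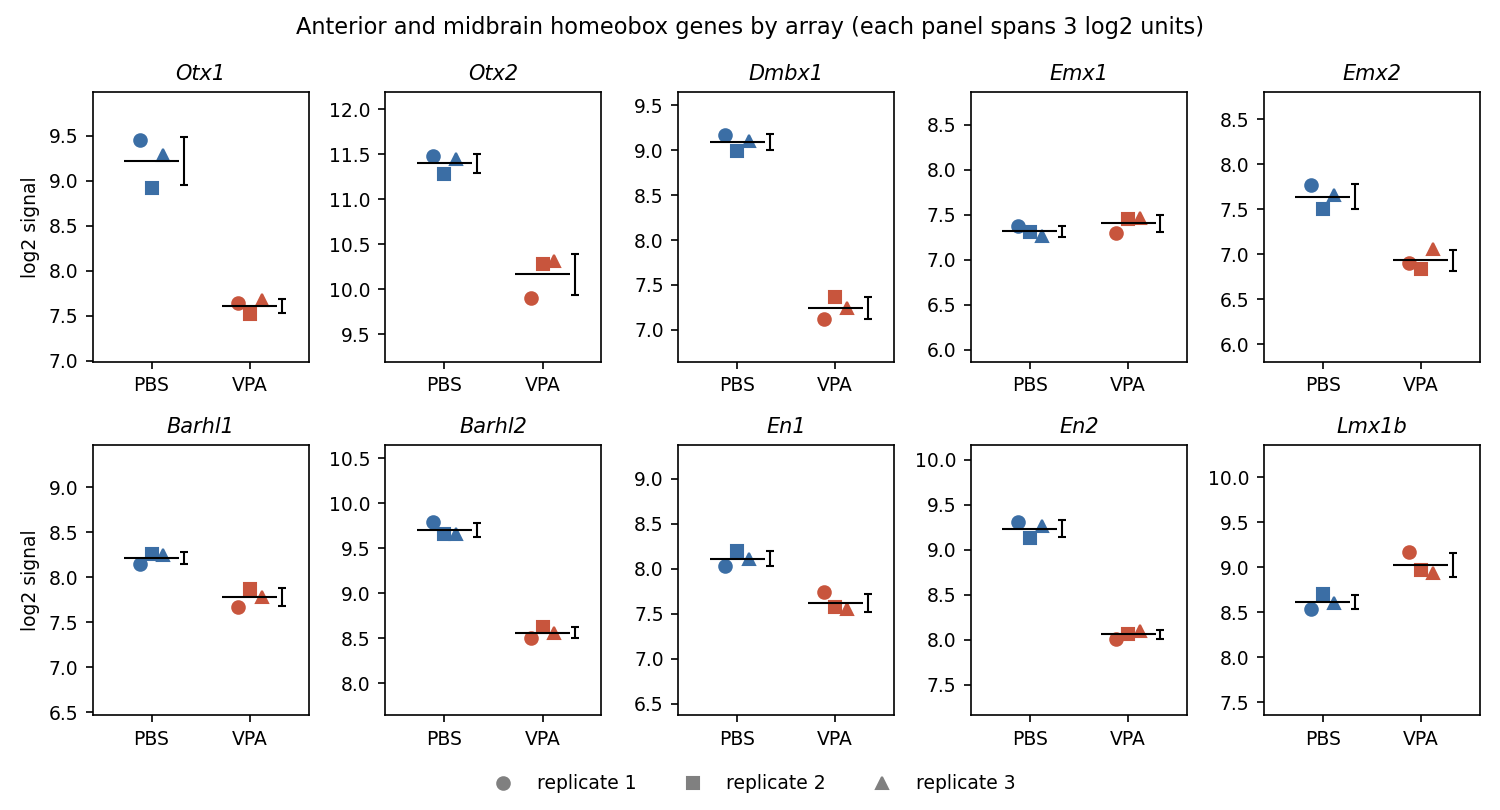
Normalized log2 signal (y axis) of the 10 homeobox genes in the 3 PBS (blue) and 3 VPA (red) arrays, with replicates by symbol, the group mean as a line and ± SD as the bar beside it; every panel spans the same range of log2 units. The groups are apart in 9 panels and overlap for Emx1.

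The Otx genes and their relative Dmbx1 showed the largest differences. Otx2, which the anterior neural plate needs in order to form, measured 11.48, 11.28 and 11.44 in PBS replicates 1 to 3 and 9.90, 10.28 and 10.31 in VPA replicates 1 to 3. The groups were 0.97 apart at their nearest, and VPA replicate 1 was the lowest array. The means were 11.40 ± 0.11 and 10.16 ± 0.23 (log2, SD, n = 3), a difference of -1.24 (SE 0.11), or 2.36-fold lower with VPA.

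Otx1, which acts with Otx2 in the forebrain and midbrain, read 9.45, 8.92 and 9.28 with PBS and 7.64, 7.52 and 7.67 with VPA. Its PBS arrays were the more spread, over 0.53 against 0.15 for the VPA arrays, with PBS replicate 2 the lowest, yet the nearest arrays of the groups were 1.25 apart. It was 3.04-fold lower, a difference of -1.60 (SE 0.12).

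Dmbx1, a paired-type homeobox gene of the caudal diencephalon and midbrain, read 9.17, 8.99 and 9.10 with PBS and 7.12, 7.37 and 7.24 with VPA. It had the widest separation of the 10, with 1.62 between the nearest arrays of the groups. The means of 9.08 ± 0.09 and 7.24 ± 0.12 (SD, n = 3) differed by -1.84 (SE 0.08), 3.58-fold. Of all genes, 9 had a lower difference than Dmbx1, 18 than Otx1 and 54 than Otx2, ranks given as description only.

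The Emx pair, which patterns the cerebral cortex and hippocampus, was unequal. Emx2 read 7.77, 7.50 and 7.66 with PBS and 6.90, 6.84 and 7.06 with VPA, and the groups were 0.44 apart. Its difference was -0.71 (SE 0.09), 1.63-fold lower. Emx1 read 7.38, 7.31 and 7.26 with PBS and 7.30, 7.45 and 7.47 with VPA. Here VPA replicate 1 lay among the PBS values, and the difference of 0.09 (SE 0.07) was within the spread of the arrays.

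The Barhl pair, homologues of the fly BarH genes that act in commissural and diencephalic neurons, was lower in both members but by unequal amounts. Barhl2 read 9.79, 9.66 and 9.66 with PBS and 8.50, 8.63 and 8.56 with VPA. Both groups were tight, each spanning 0.14, and lay 1.02 apart. The difference was -1.14 (SE 0.06), 2.20-fold lower. Barhl1 read 8.14, 8.26 and 8.24 with PBS and 7.67, 7.87 and 7.78 with VPA, a difference of -0.44 (SE 0.07), 1.36-fold lower, with 0.28 between the nearest arrays.

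The Engrailed pair, which marks the midbrain and anterior hindbrain on both sides of the isthmus, showed the same inequality. En2 read 9.31, 9.13 and 9.26 with PBS and 8.01, 8.06 and 8.10 with VPA. The VPA arrays spanned only 0.09, and the groups were 1.03 apart. Its difference was -1.18 (SE 0.06), 2.26-fold lower. En1 read 8.03, 8.20 and 8.11 with PBS and 7.74, 7.58 and 7.55 with VPA, a difference of -0.49 (SE 0.07), 1.40-fold lower, with VPA replicate 1 nearest to the controls.

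Lmx1b, a LIM homeobox gene that maintains Wnt1 and Fgf8 at the isthmus and is needed by dopaminergic and serotonergic neurons, was the exception. It read 8.54, 8.70 and 8.60 with PBS and 9.17, 8.97 and 8.93 with VPA, so every VPA array was above every PBS array. The gap of 0.23 was slightly narrower than the span of the VPA arrays, 0.24, and VPA replicate 1 was the highest. The difference was 0.41 (SE 0.08), 1.32-fold higher.

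**Figure D2:**
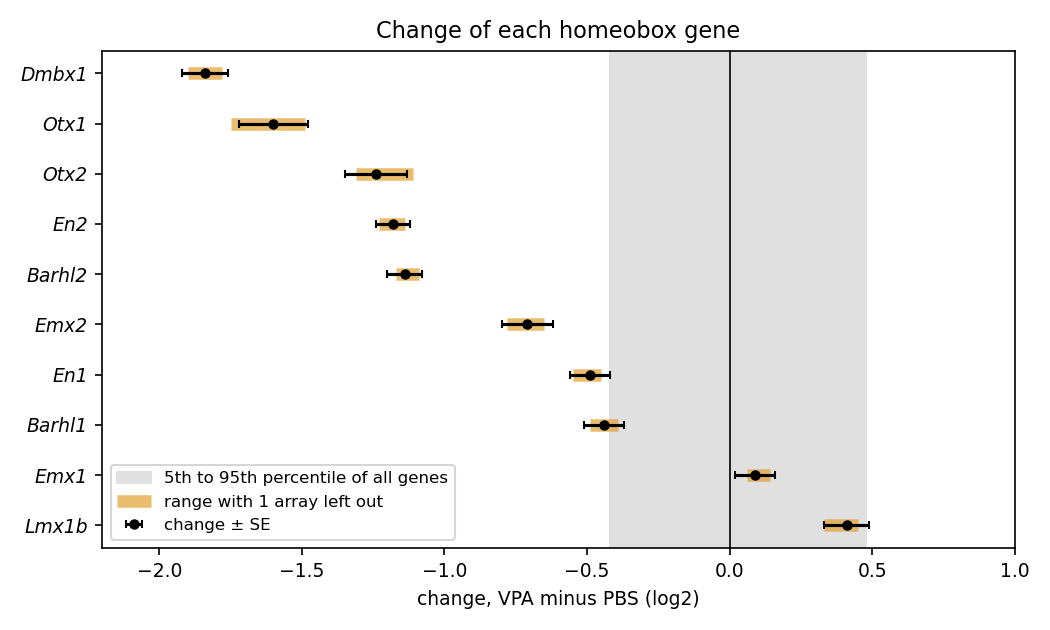
Difference VPA minus PBS (x axis, log2) of each homeobox gene with its moderated standard error (black), the range when each array was left out in turn (orange) and the 5th to 95th percentile of all genes (grey, -0.42 to 0.48). The points of the 8 lower genes lie left of the grey band, and those of Emx1 and Lmx1b lie within it. Barhl1, at -0.44, is near the edge, and its orange range reaches -0.39, inside the band.

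Among the paralogue pairs, the member with the larger difference was Otx1 over Otx2, Emx2 over Emx1, Barhl2 over Barhl1 and En2 over En1. With any 1 array left out, Otx2 ranged from -1.31 to -1.11, Otx1 from -1.75 to -1.49, Dmbx1 from -1.90 to -1.78, En2 from -1.23 to -1.14 and Lmx1b from 0.33 to 0.45. The groups of 8 of the 10 genes, all those that were lower, were further apart than the wider of the group ranges. The share of all genes that meet this was not computed, and this contrast helped choose the 10 genes. Nothing is therefore read from that count.

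Replicates within a group also differed. VPA replicate 1 was the lowest VPA array for 6 of the 10 genes; against the mean of VPA replicates 2 and 3 it deviated by -0.40 for Otx2, the largest such deviation, where PBS arrays spanned 0.20. The deviation was -0.18 for Dmbx1 and -0.16 for both Barhl1 and Emx1. The same array was higher by 0.22 for Lmx1b, 0.17 for En1 and 0.05 for Otx1. For Otx2, Dmbx1, Barhl1, Barhl2, En2 and Lmx1b, VPA replicate 1 was thus the VPA array furthest from the controls, and for Emx1 and En1 the nearest. The median absolute deviation of this array was 0.16 over the 10 genes and 0.12 over all genes. With its sign, the median deviation was -0.09 over the 10 genes and -0.025 over all genes. VPA replicate 1 lay below the mean of VPA replicates 2 and 3 for 7 of the 10 genes and for 11098 of 19938.

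Among the controls, PBS replicate 2 was the lowest array for 6 of the 10 genes, a pattern looked at after the values were seen. Against the mean of the other PBS arrays it deviated by -0.44 for Otx1, -0.21 for Emx2, -0.18 for Otx2, -0.15 for both Dmbx1 and En2 and -0.07 for Barhl2, and by 0.13 for both En1 and Lmx1b. The median deviation was -0.108 over the 10 genes and -0.002 over all genes. Among the gene lists and marker lists described below it ranged from -0.151 for pluripotency genes, all 7 of them below 0, to 0.056 for neuronal markers, with 0 of 10 below 0. It was -0.149 for dorsal midbrain genes, 0.054 for mesenchyme genes and 0.043 for hindbrain genes.

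To place these genes in their surroundings, 9 lists of other genes of the anterior-posterior system were compared between VPA and PBS with limma across all 19938 genes, at a Benjamini-Hochberg adjusted p under 0.05. By that test 13.6% of all genes were higher with VPA and 15.7% lower. The lists were written with earlier results of these data known, and each is described by its counts and its median. Genes of the lists that were not measured through a probe set of their own were not analysed here.

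The list with the lowest median was that of the dorsal midbrain and tectum, with 10 of 14 genes lower, 2 higher and a median difference of -0.87. Tfap2b, a transcription factor gene of the tectum and neural crest, read 11.52 ± 0.03 with PBS and 10.12 ± 0.11 with VPA (SD, n = 3). It fell by 1.39 on the log2 scale (SE 0.07, adjusted p = 2.79e-06).

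Pax7, a paired box gene of the tectum, read 9.49, 9.24 and 9.33 with PBS and 7.97, 8.09 and 8.11 with VPA, and fell by 1.30 on the log2 scale (SE 0.08, adjusted p = 7.63e-06). Sox14, a marker of GABAergic precursors, read 9.95, 9.68 and 9.80 with PBS and 8.57, 8.56 and 8.46 with VPA (change -1.28, SE 0.08, adjusted p = 7.87e-06). Tal2, which midbrain GABAergic neurons require, read 10.58, 10.25 and 10.49 with PBS and 8.83, 9.34 and 9.46 with VPA (change -1.23, SE 0.15, adjusted p = 0.000447). In these 4 genes no VPA array reached a PBS array.

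The other genes of the list are named here after their values were seen. They include Helt, Gata2 and Gata3, selectors of GABAergic fate in the midbrain. Helt changed by -1.10 (SE 0.08), Gata3 by -1.02 (SE 0.13) and Gata2 by -0.63 (SE 0.08). The LIM homeobox genes Lhx1 and Lhx5, which are also expressed in the diencephalon, changed by -1.06 (SE 0.07) and -0.72 (SE 0.15). Bhlhe23 changed by -0.26, and its call was lost when PBS replicate 2 (adjusted p = 0.0884) or PBS replicate 3 (0.0705) was left out, or VPA replicate 2 (0.0654). Meis2 and Tcf4, both widely expressed in the brain, rose by 0.44 (SE 0.06) and 0.42 (SE 0.05). Pax3, a dorsal gene along the whole neural tube, read 9.79 ± 0.04 with PBS and 9.83 ± 0.05 with VPA (SD, n = 3) and was not called, nor was Pou4f1.

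**Figure D3:**
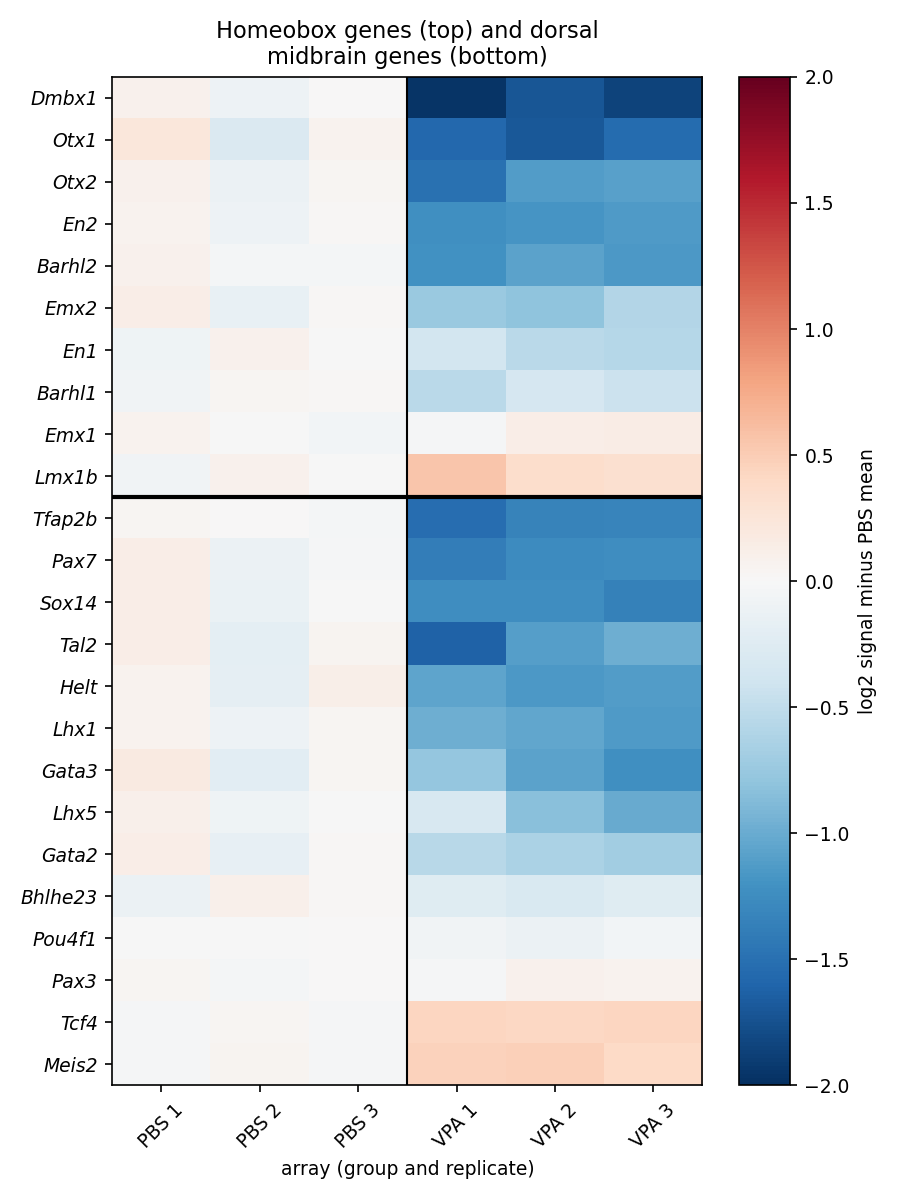
Log2 signal of each array minus the mean of the PBS arrays (colour, from -2 to 2) for the 10 homeobox genes (top) and the 14 dorsal midbrain genes (bottom), each block ordered by its difference between VPA and PBS. In the top block 8 genes and in the bottom block 10 called genes are blue in the VPA columns, while Lmx1b, Tcf4 and Meis2 are red.

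The signals and partners of the midbrain-hindbrain boundary did not move in 1 direction: 7 of 19 were higher, 6 lower, and the median was 0.03. Wnt1, the organizer's Wnt ligand on the midbrain side, read 7.42, 7.08 and 7.38 with PBS and 6.54, 6.80 and 6.62 with VPA, and fell by 0.64 on the log2 scale (SE 0.10, adjusted p = 0.00169). Fgf8, the ligand on the hindbrain side, read 7.52, 7.60 and 7.60 with PBS and 7.53, 7.60 and 7.51 with VPA and was not called (change -0.03, SE 0.06, adjusted p = 0.785). Wnt1 and Fgf8 are named as the organizer's defining ligands, after their values were seen.

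The lowest changes of the list were those of Cnpy1 and Spry1. Cnpy1, which promotes FGF signalling at the isthmus of fish, read 9.12, 9.05 and 9.15 with PBS and 7.73, 8.07 and 8.10 with VPA (change -1.14, SE 0.10, adjusted p = 5.34e-05). Spry1, a feedback inhibitor of the pathway, changed by -1.10 (SE 0.06, adjusted p = 3.96e-06). Another inhibitor of the pathway, Il17rd, rose by 0.66 (SE 0.08, adjusted p = 0.000383). Dusp6, Spry2 and Spry4, further inhibitors named after their values were seen, had differences of 0.51 (SE 0.09, adjusted p = 0.003), 0.20 (SE 0.06, adjusted p = 0.0459) and 0.01 (SE 0.09, not called). The call of Spry2 was lost under 8 alternatives, with an adjusted p of up to 0.171 without PBS replicate 1. Pax8, a paired box gene of the isthmus, rose by 0.80 (SE 0.13, adjusted p = 0.00165).

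Gbx2, the hindbrain counterpart of Otx2, is named after its values were seen. It read 7.92, 8.01 and 7.94 with PBS and 8.45, 8.29 and 8.33 with VPA, and rose by 0.40 (SE 0.06, adjusted p = 0.00157). Otx2 and Gbx2 repress each other across the boundary. Within each array, the log2 signal of Otx2 minus that of Gbx2 was 3.56, 3.27 and 3.50 with PBS and 1.45, 1.99 and 1.98 with VPA. The difference narrowed by 1.64 between the group means. It is a change of 1 probe set against another, not a ratio of RNA molecules. Otx2, which changed by -1.24, was chosen partly on this contrast, so nothing is read from the narrowing.

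Hindbrain axial factors had the highest median of the lists: 13 of 17 rose, 0 fell by limma, and the median was 0.99. Even at an unadjusted p under 0.05 limma called 0 of the 17 lower. Hoxb3 rose by 2.59 (SE 0.17, adjusted p = 1.36e-05), Hoxb4 by 2.13 (SE 0.13, adjusted p = 1.03e-05), Hoxb2 by 2.01 (SE 0.18, adjusted p = 6.4e-05) and Hoxa2 by 1.70 (SE 0.09, adjusted p = 3.46e-06). These genes give rhombomeres their identity. Hoxb1, Gbx1, Egr2 and Cyp26c1, named after their values were seen, were not called, with changes of 0.04, -0.04, 0.18 and -0.11. Every VPA array was above the PBS arrays for Egr2 and below them for Cyp26c1. Egr2 lay below the gauge in both groups. VPA replicate 1 had a median deviation of 0.37 in this list from the mean of VPA replicates 2 and 3. The same deviation was 0.03 in the dorsal midbrain list and lay between -0.11 and 0.10 in the remaining gene lists. A link to Otx2 in that array was not tested.

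Forebrain patterning factors were divided, with 6 of 16 lower, 5 higher and a median of -0.02, which was -0.16 when genes below the 30th percentile or below the gauge were left out. Fezf2, a cortical and early forebrain factor, fell by 1.25 on the log2 scale (SE 0.09, adjusted p = 1.72e-05), Tcf7l2, a Wnt effector of the thalamus and midbrain, by 0.90 (SE 0.06, adjusted p = 1.62e-05) and Nr2e1 by 0.67 (SE 0.11, adjusted p = 0.00188). Foxd1 rose by 1.12 (SE 0.12, adjusted p = 0.000187); it is expressed in hypothalamic and retinal precursors and also in stromal mesenchyme.

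In the dorsal telencephalon, where the Emx genes act, 7 of 18 genes fell and 4 rose, with a median of -0.08. The count that rose was 2 without PBS replicate 1 or 2 and 1 without PBS replicate 3. Wnt8b, a ligand of the cortical hem, read 8.19 ± 0.16 with PBS and 6.06 ± 0.13 with VPA (SD, n = 3), the latter below the gauge (change -2.13, SE 0.10, adjusted p = 2.09e-06). Eomes, a factor of intermediate cortical progenitors, changed by -1.95 (SE 0.09, adjusted p = 2.72e-06), and Tbr1 by -0.87 (SE 0.09, adjusted p = 0.000162), to a VPA mean below the gauge. Wnt5a, also widely expressed in mesenchyme, rose by 0.98 (SE 0.09, adjusted p = 6.69e-05).

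In the rhombic lip and cerebellar granule list, where Barhl1 and En2 are also expressed, 6 of 13 fell and 4 rose. The median was -0.11, and -0.54 when genes below the 30th percentile or below the gauge were left out. Its defining factor Atoh1 lay below the gauge in both groups. Zic4 changed by -1.88 (SE 0.09, adjusted p = 2.4e-06), or by -0.88 with the mean of its probe sets; Zic1 and Zic2 both changed by -0.82 (SE 0.08 and 0.09), and Lhx9 by -0.80 (SE 0.12).

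Midbrain dopaminergic genes, among which Lmx1b acts, were more often higher than lower: 6 of 13 rose and 1 fell, with a median of 0.18. The gene that fell, Drd2, was named after its values were seen and lost its call when PBS replicate 3 was left out (adjusted p = 0.0714), as it did on leaving out VPA replicate 2 (0.0557) or VPA replicate 3 (0.0538). Th, the rate-limiting enzyme of dopamine synthesis, read 7.17 ± 0.17 with PBS and 7.97 ± 0.24 with VPA (SD, n = 3), and rose by 0.80 (SE 0.12, adjusted p = 0.00137). Ddc, the next enzyme, rose by 0.91 (SE 0.10, adjusted p = 0.000196); its PBS mean, 5.35, was under the gauge. Slc18a2, the vesicular monoamine transporter, rose by 0.65 (SE 0.06, adjusted p = 9.73e-05) and the floor plate factor Foxa1 by 0.72 (SE 0.15, adjusted p = 0.00665). The dopamine transporter gene Slc6a3, at 6.17 ± 0.19 and 6.24 ± 0.02 (SD, n = 3), and Pitx3, both named after their values were seen, were not called.

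Among anterior signal antagonists and regulators of Otx2, taken as 1 list, 4 of 14 were higher and 2 lower, with a median of 0.12. Sfrp2 and Frzb, secreted Wnt antagonists that mesenchyme also makes, rose by 1.20 (SE 0.06, adjusted p = 3.3e-06) and 1.03 (SE 0.11, adjusted p = 0.000149); the PBS mean of Frzb was below the gauge. The Wnt antagonist of the head, Dkk1, changed by -0.69 (SE 0.10, adjusted p = 0.000888), and Lhx1, counted above as well, by -1.06. Of 8 measured relatives, homeobox genes of the bicoid-type and sine oculis families, 2 fell and 0 rose by limma, and 0 were higher at an unadjusted p under 0.05. Their median was -0.02. Six3 changed by -0.28 (SE 0.06, adjusted p = 0.00553). Crx, an Otx paralogue of photoreceptors and pineal, changed by -0.36 (SE 0.10, adjusted p = 0.0291) to a VPA mean below the gauge, and its call was lost under 6 alternatives, where adjusted p reached 0.112 without PBS replicate 1.

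**Figure D4:**
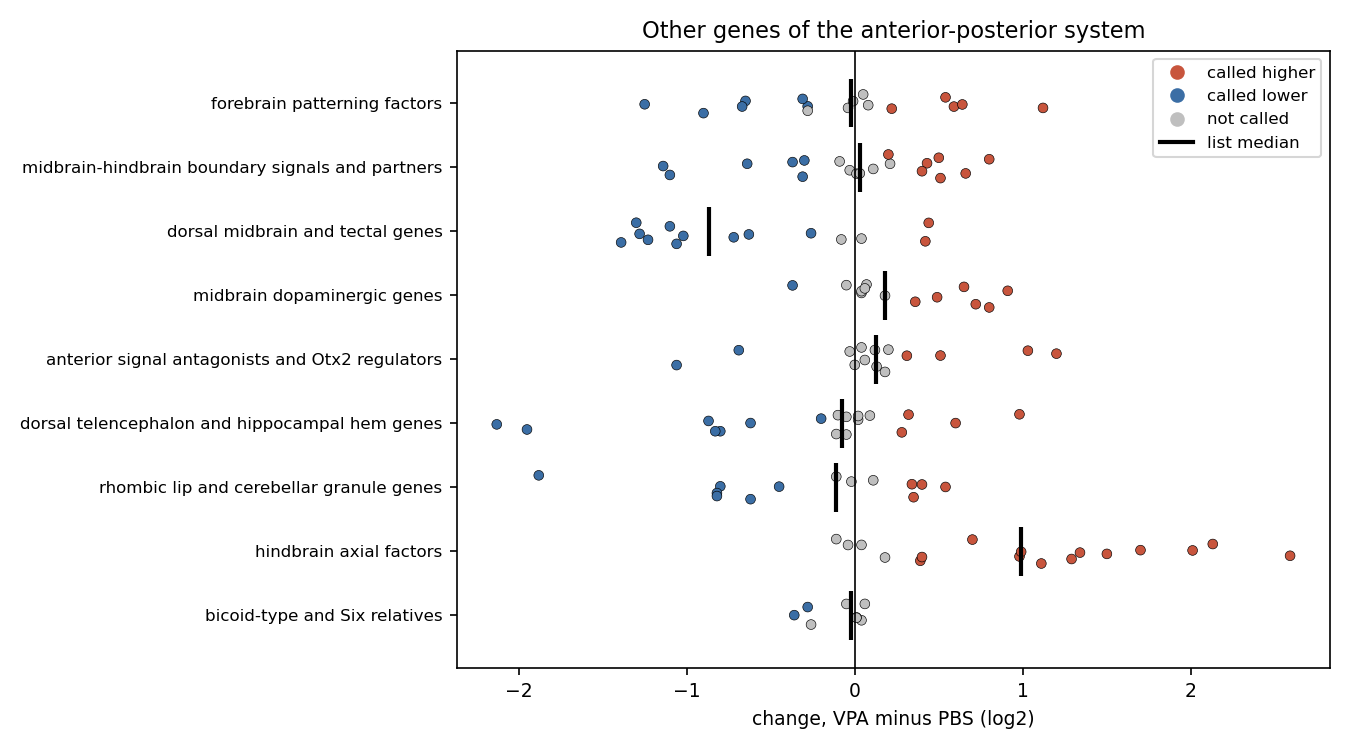
Difference VPA minus PBS (x axis, log2) of each gene of the 9 lists, coloured by its call at a limma adjusted p under 0.05, with the list median as a black bar; vertical scatter within a row carries no value. The dorsal midbrain median lies at -0.87, the hindbrain median at 0.99, and the other medians between -0.11 and 0.18.

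Over the 6 arrays, each homeobox gene with a difference of at least 1 was set against 13357 genes above the gauge, clone, locus, Riken and predicted names being left out, by the root mean square difference of values centred on each gene's mean. The nearest to Otx2 were Lrp1b (0.062 log2 units), Cnpy1 (0.065) and AI504432 (0.069). Nearest to Dmbx1 were Zic4 (0.064), Eomes (0.114) and Kcnd2 (0.124), and nearest to Otx1 were Rasgrp1 (0.118), Amy1 (0.130) and Gad1 (0.132). The likeness of Zic4 rests on its brightest probe set, with a change of -1.88, against -0.88 for the mean of its probe sets. Barhl2 was nearest to Cyp4f15 (0.037), Cdh12 (0.049) and Ndst3 (0.051), and En2 to Ndst3 (0.038), Grm8 (0.044) and Cyp4f15 (0.049). No homeobox gene of the 10 was among the 3 nearest of another. The measure includes the size of the difference between the groups.

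Several of the 10 genes are also expressed outside the brain regions named, so markers of such cells were measured. Of 14 genes of limb and body-wall mesenchyme, where En1 and Lmx1b are expressed, 10 rose and 0 fell by limma, also 0 at an unadjusted p under 0.05, with a median of 1.10. Their mean level was 7.31 to 7.40 in the PBS arrays and 8.42 to 8.48 in the VPA arrays. The limb genes Tbx4 and Tbx5 lay below the gauge in both groups, and Postn rose by 2.66 (SE 0.13, adjusted p = 2.79e-06). Named after their values were seen, Msx1 and Pitx1 both changed by -0.05 and were not called. Prrx1 rose by 1.90, Twist1 by 1.12, Hand2 by 0.45 and Msx2 by 0.24, the last not called without PBS replicate 3. Of 10 neuronal markers 7 fell and 1 rose, with a median of -0.25. Only 3 of the 10 were called lower when PBS replicate 2 was left out, where Map2, Snap25, Syt1 and Elavl3 lost their calls, and 4 without PBS replicate 1. Of 8 neural progenitor markers 1 fell and 2 rose, with a median of -0.05. The call of the marker that fell, Sox1, was lost on leaving out any 1 array but VPA replicate 1, and that of Nes, which rose, without PBS replicate 2. The part of these shifts in the values of the 10 homeobox genes was not tested.

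Otx2 is expressed in choroid plexus, retinal pigment epithelium, photoreceptors and visceral endoderm. Of 8 choroid plexus genes 2 fell, Ttr by 1.90 on the log2 scale (SE 0.17, adjusted p = 6.01e-05) and Folr1 by 0.24 (SE 0.06, adjusted p = 0.0144; 0.0673 without PBS replicate 1 and 0.0594 without PBS replicate 3), with Kl, Clic6 and Kcne2 below the gauge in both groups. The list's mean level was 6.44 to 6.56 with PBS and 6.25 to 6.32 with VPA, and its median change was 0.00. Its part in the Otx2 difference was not tested. Of the 10 pigment epithelium genes 8 lay below the gauge in both groups, Rpe65 and Tyr among them, as did 6 of 8 photoreceptor and pineal genes and 3 of 10 visceral endoderm genes, including Afp and Sox17. The mean level of these lists was 5.45 to 5.48, 5.49 to 5.52 and 6.41 to 6.44 with PBS and 5.53 to 5.57, 5.36 to 5.52 and 6.44 to 6.48 with VPA. In these lists 1 gene rose, 1 fell, and 1 rose and 1 fell, respectively. The call of the photoreceptor gene that fell, Crx, is the one described above; their part in the Otx2 difference was not tested.

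For Lmx1b, the serotonergic list had 3 of 7 genes higher and 3 lower. Its median was 0.17, and -0.63 when genes below the 30th percentile or below the gauge were left out. The 3 lower genes were Gata2 and Gata3, counted above in the dorsal midbrain list as well, and Maob. Maob changed by -0.71 and lay below the gauge in both groups. The count higher was 1 without PBS replicate 2, where Tph2 (adjusted p = 0.0857) and Slc6a4 (0.0555) lost their calls, and 1 when genes below the 30th percentile or below the gauge were left out. Each of these calls was also lost on leaving out other arrays, that of Tph2 without PBS replicate 1 or VPA replicate 3 and that of Slc6a4 without PBS replicate 3 or VPA replicate 2. The list had its defining gene Tph2 below the gauge in both groups, and a mean level of 6.63 to 6.75 with PBS and 6.51 to 6.59 with VPA. Of 4 podocyte genes 2 rose and 0 fell by limma, also 0 at an unadjusted p under 0.05, at a mean level of 6.73 to 6.79 and 7.06 to 7.12. Of 6 hair cell genes, a cell type that expresses Barhl1, 1 fell, with Atoh1 below the gauge and a mean level of 6.35 to 6.40 and 6.22 to 6.30. Their part in the differences of Lmx1b and Barhl1 was not tested.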

How the data were processed

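The authors deposited normalized log2 signals per probe set, with each array in a column; the base of 2 is an inference from values of 2.50 to 13.89. The submitters' processing notes list Partek 6.5 and mm9 without a role. How background was corrected, probes were summarized and arrays were normalized is not given here. Equal array medians remove overall differences in RNA content, so each difference is relative to other genes. The number of arrays limits the precision.

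Of 35556 probe sets, 21789 had exactly 1 gene symbol in GEO's platform annotation, 1621 several and 12146 none. Symbols were updated by Entrez ID (21698 matched), and the brightest probe set per symbol gave 19938 genes. VPA and PBS were compared with limma 3.58.1 in R 4.3.3 (lmFit, eBayes, no covariates), tested on simulated data first. The exact permutation test of 3 arrays against 3 cannot go below 0.1, so none was used.

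The members and lists were chosen with earlier results of these data known. Named were the members, up to 4 called genes per list with the largest change, or, in a list without calls, the 2 of lowest p, and the genes of nearest pattern; any other gene was named after its values were seen. For marker lists not all such genes are described. A planned set of all homeobox genes, defined by protein sequence, and the members' homeodomains were not analysed here. Alternatives were quantile normalization, median centring, filters on dim genes, mean of probe sets, other variance models, array weights, a replicate block, a stricter threshold and leaving out each array; for the marker lists these were added after seeing the data. Same-numbered arrays of the groups had deviations correlated at -0.0199, -0.00849 and 0.0196, so the numbers did not pair them.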

Additional observations from a re-analysis of the deposited data

How the results depend on the processing

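Of the 10 homeobox genes, 0 of the 9 with separate groups changed direction. Leaving out or weighting arrays could not have reversed them, since all their VPA arrays lay on 1 side of their PBS arrays. Of the 14 alternatives 5 leave the differences as they are by construction. These are both filters on dim genes, the mean of probe sets, the replicate block and the trend and robust variances. Under the other 9, all 90 values moved by less than the spread between replicates, taken as the pooled SD within groups. Leaving out 1 of 3 arrays cannot move a difference by more than that SD, so those values were bound to stay within it. The median of the 10 genes was -0.97 to -0.87 with 1 array left out and -0.90 after quantile normalization. With the replicate block the calls over all genes were 2592 higher and 2818 lower, against 2702 and 3123. With array weights 4342 were higher, and 1579 were higher and 1791 lower at an adjusted p under 0.01. With 1 array left out they ranged from 1778 to 3949 higher and from 2058 to 4224 lower, lowest without PBS replicate 2 and highest without VPA replicate 1. After quantile normalization they were 3147 and 2671. Of the counts of the 9 gene lists 257 stayed within 1.5 times their value and 13 did not, and of those of the marker lists 292 did and 38 did not. Dorsal telencephalic genes called higher went from 4 to 1 at an adjusted p under 0.01. The causes were not tested. Signals near the gauge of 6.158 limit what can be said of dim genes; each group rests on 3 arrays of 1 cell line.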
